A study of Homo sapiens with 9 samples.

Results

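The 10 genes described here encode nuclear receptors that respond to fatty acids, vitamin D, steroids, oxysterols or foreign compounds, together with their shared partner and related orphan receptors. They are the peroxisome proliferator-activated receptors PPARA, PPARD and PPARG, the vitamin D receptor VDR, the glucocorticoid receptor NR3C1, the retinoid X receptor RXRA, the oestrogen-related receptor ESRRA, the liver receptor homologue NR5A2, the liver X receptor NR1H3 and the pregnane X receptor NR1I2. They were taken by gene name, as a set proposed with earlier results of these data known, from the 58920 genes listed in each count table, and all 10 were listed. The study asked how a colorectal cancer cell line that had become refractory to cetuximab, an antibody against the epidermal growth factor receptor, differed from the line it came from. RNA was sequenced from LIM1215-parental cells, cultured in parallel without the antibody, and from LIM1215-R1 and LIM1215-R2, selected separately by rising doses of cetuximab, with 3 libraries per line. LIM1215 is an established RAS wild-type colorectal cancer cell line. All cells were grown in serum-containing medium under basal conditions, without treatment for this experiment. No addition of a receptor ligand is described, nor a measurement of ligands in the medium. After selection the resistant lines were kept in cetuximab, which was withdrawn before drug treatments. Whether it was withdrawn before RNA was taken is not stated. The resistant lines are mixed populations, not single clones, and the study describes HRAS mutations in part of their cells. Because the libraries of a line are described as technical replicates, the p-values below measure only the spread between these libraries. A change of RNA in bulk cells can come from fewer cells that express a gene or from less RNA per cell, and these cannot be told apart here.

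Nuclear receptors are transcription factors with a DNA-binding domain and a pocket for a small lipophilic ligand. PPARs, VDR, liver X receptor and pregnane X receptor bind DNA as pairs with a retinoid X receptor and recruit corepressors or coactivators according to ligand. The glucocorticoid receptor waits in the cytoplasm with heat shock proteins until it binds cortisol, then acts mostly as a pair with itself. ESRRA, which has no established natural ligand, drives mitochondrial genes with PGC-1 coactivators, and NR5A2 binds DNA alone and is known in gut and liver for steroid, bile acid and crypt cell genes.

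Total counts per library lay between 13737416 and 18725014, and log2 CPM (counts scaled by library size) of replicates correlated at 0.9895 to 0.9917, against 0.971 to 0.9874 between lines. Replicates differed by more than sampling noise in every pair, with a chi-square per degree of freedom of 1.82 to 6.04. The label of colorectal epithelium was checked with 8 markers. KRT20 was at 0 in all libraries and the other 7 were above 1 CPM. Their summed level was 11820 to 12190 CPM in parental, 15200 to 15470 in R1 and 13780 to 14180 in R2 libraries. Summed markers of hepatocytes reached at most 0.433 CPM, of adipocytes 2.06 and of fibroblasts 2.18, with SERPINA1, ADIPOQ, LEP and COL1A2 at 0. Leukocyte markers summed to 7.08 to 14.2 CPM, and PTPRC and CD3E were at 0.

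VDR, NR5A2, NR1I2, RXRA and PPARG, 5 of the 9 receptors tested, were called lower in both resistant lines. PPARD was the member called higher in both. The share of all genes called in the same direction in both lines was not computed, so only shares per line stand beside these counts. The R1 call of PPARG was lost in 12 of 20 alternatives. A gene entered the test when its 9 libraries held 10 counts or more together, which left 19102 genes and 9 of the 10 receptors. In R1, 7 receptors passed an adjusted p of 0.01 in edgeR's quasi-likelihood test, of which 1 was higher and 6 were lower than in parental cells. Over all genes tested 14% were called higher and 13.4% lower in this comparison. In R2, 6 receptors passed, 1 higher and 5 lower, against 12.3% and 11.6% of all genes. The median log2 fold change of the 9 receptors was -0.32 in R1 and -0.30 in R2, beside a median of -0.01 and -0.004 over all genes tested. NR5A2 and NR1I2 also passed the threshold for differentially expressed genes (DEGs), which adds an absolute log2 fold change of 1.5 and which 5.14% of all genes passed in R1 and 4.82% in R2. Both comparisons share the 3 parental libraries. Between R2 and R1, 1 receptor, PPARA, was called and was higher in R2, where 3.39% of all genes were called higher and 3.77% lower. No receptor was a DEG between the resistant lines, against 0.764% of all genes, and 3 had an unadjusted p under 0.05 in edgeR (PPARA, NR5A2 and NR1I2), while DESeq2 also gave 0 DEGs.

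**Figure D1:**
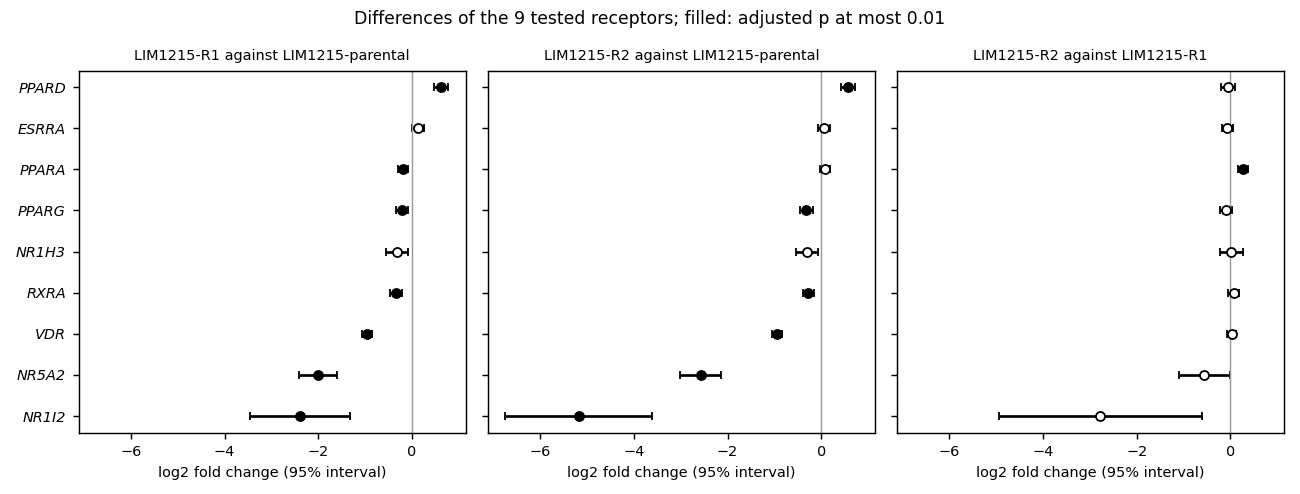
Log2 fold change (x axis) of the 9 tested receptors (y axis) in the 3 comparisons, with 95% intervals from edgeR's quasi-likelihood fit and filled points where the adjusted p was at most 0.01. VDR, NR5A2, NR1I2, RXRA and PPARG lie to the left of 0 against parental cells in both resistant lines and PPARD lies to the right, while between R2 and R1 only PPARA is filled. The NR1I2 points for R2 rest on 1 count in that line.

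VDR, the receptor of calcitriol that controls calcium uptake in the gut, had the most counts of the 10 genes. The gene lies at chr12:47841537-47943048 on the minus strand of hg38. Its level was 381, 411 and 356 CPM in the 3 parental libraries, 189, 203 and 197 CPM in R1 and 199.9, 201 and 198 CPM in R2. Every resistant library lay far below every parental library, and the 2 resistant lines overlapped. The fall was 1.95-fold in R1 (log2 fold change -0.96, SE 0.05, adjusted p = 5.17e-15) and 1.92-fold in R2 (-0.94, SE 0.05, adjusted p = 8.88e-15). The difference between R2 and R1 was 0.02 on the log2 scale, with a 95% interval from -0.08 to 0.13 (adjusted p = 0.824).

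RXRA, at chr9:134317098-134440585, is the partner with which VDR, the PPARs, NR1H3 and NR1I2 bind DNA. It measured 89.6, 101 and 89.8 CPM in parental libraries, 71.9, 75.6 and 73.3 CPM in R1 and 77.5, 73.8 and 80.1 CPM in R2. All resistant libraries were below all parental ones, by 1.27-fold in R1 (log2 fold change -0.34, SE 0.06, adjusted p = 3.04e-05) and 1.21-fold in R2 (-0.28, SE 0.06, adjusted p = 0.000454). No other retinoid X receptor was appreciably detected. RXRB had 39 counts over the 9 libraries and RXRG had 0. Per kilobase of exon, VDR stood 8.44 to 9.04 times above RXRA in the parental libraries and 5.25 to 5.80 times in the resistant ones. With the length of the canonical transcript in place of all exons, these ratios were 4.76 to 5.10 and 2.96 to 3.27. The parental and resistant ranges did not overlap. The choice of length scales this ratio alike in every library, so it could not change that.

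**Figure D2:**
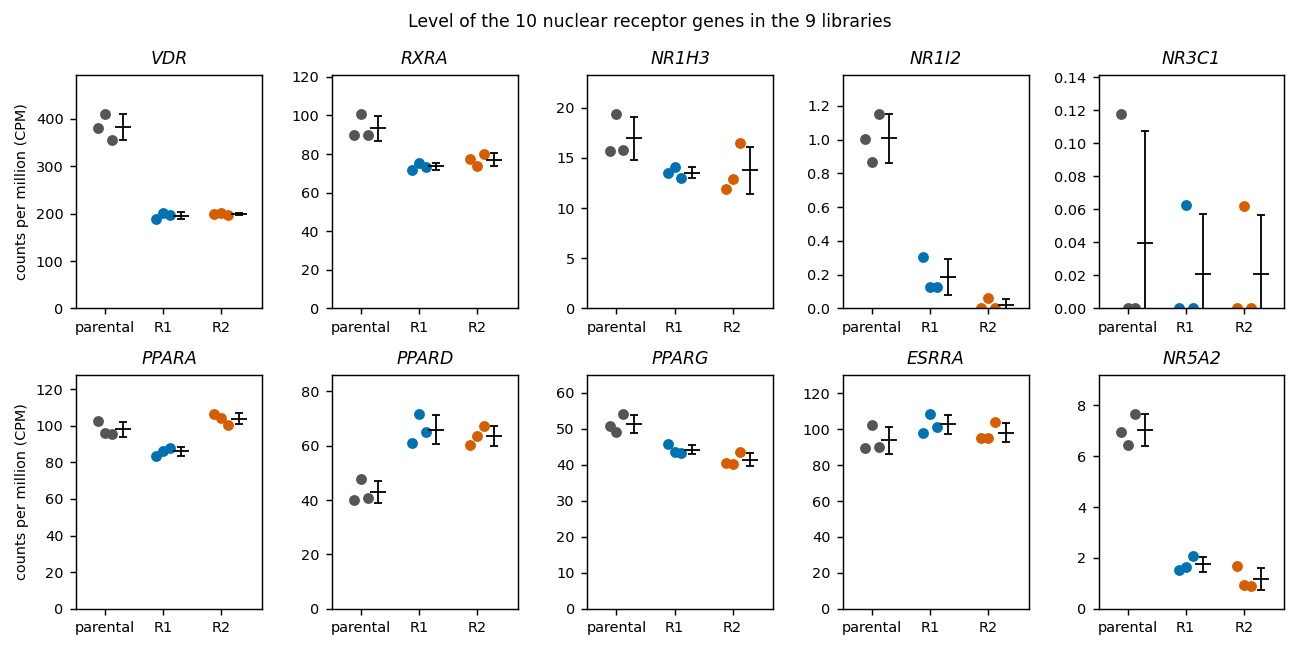
CPM with TMM scaling (y axis, linear from 0) of each of the 10 receptors in the 3 libraries of each line (x axis), with points for libraries and a bar with whiskers for the mean and SD of 3 libraries. VDR falls from a mean of 383 CPM in parental cells to 196 and 199.5 CPM, NR5A2 and NR1I2 fall toward 0, PPARD rises from 42.9 to 66.0 and 63.8 CPM, and NR3C1 has 0 in 6 of 9 libraries.

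Of 14 genes listed as vitamin D targets, 5 had enough counts to test, with median log2 fold changes of -0.01 in R1 and -0.08 in R2. CYP24A1, the calcitriol-degrading enzyme that is the classic target of VDR, had 0 counts in all 9 libraries, which allows up to 0.0602 CPM in parental, 0.0622 CPM in R1 and 0.0621 CPM in R2 cells, a floor of 3 counts over a line that covers counting error only. TRPV6, the gut calcium channel, had 4 counts in all. In R1, IGFBP3 was called higher and CLMN lower, and in R2 IGFBP3 was called higher and CALB1 lower. Of all genes tested, 14% were called higher and 13.4% lower in R1, and 12.3% and 11.6% in R2. IGFBP3, which binds insulin-like growth factors, rose from 32.4 ± 1.07 CPM (SD, n = 3) in parental cells to 178 ± 1.59 CPM in R1 (log2 fold change 2.46, SE 0.05, adjusted p = 1.09e-22) and to 138 ± 3.19 CPM in R2 (2.10, SE 0.05, adjusted p = 3.09e-21), the opposite direction to VDR. CALB1, the calcium buffer calbindin, fell in R2 from 5.50 ± 0.619 to 1.69 ± 0.201 CPM (SD, n = 3; log2 fold change -1.68, SE 0.19, adjusted p = 5.44e-08), and in R1 it was 4.06 ± 0.647 CPM (adjusted p = 0.0438). The call of CLMN (log2 fold change -0.30) was lost without R1 replicate 3 (adjusted p = 0.0318) and after correcting for GC content and gene length (-0.16, adjusted p = 0.0367). The calcium pump gene ATP2B1 was at 128, 127 and 126 CPM on average in the 3 lines. Of 6 genes for vitamin D supply, 3 were tested and 0 were called in R1 and in R2 by edgeR or DESeq2, with 1 and 0 at an unadjusted p under 0.05 in edgeR and medians of 0.50 and 0.11. CYP27B1, the enzyme that makes calcitriol, had 0.908 ± 0.126 CPM in parental, 1.76 ± 0.340 in R1 (adjusted p = 0.0121) and 1.18 ± 0.353 in R2 libraries.

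The 3 PPARs sense fatty acids and differ in tissue and role. PPARD, which is widely expressed and promotes fatty acid oxidation, was 40.1, 47.6 and 41.0 CPM in parental libraries, 61.2, 71.8 and 65.1 CPM in R1 and 60.2, 63.7 and 67.5 CPM in R2. All resistant libraries were above all parental ones. The rise was 1.54-fold in R1 (log2 fold change 0.63, SE 0.07, adjusted p = 7.29e-08) and 1.49-fold in R2 (0.58, SE 0.07, adjusted p = 3.1e-07), and the resistant lines differed by -0.05 (95% interval -0.19 to 0.09). PPARG, the adipocyte regulator that is also abundant in colon epithelium, was 50.7, 49.2 and 54.1 CPM in parental, 45.6, 43.6 and 43.4 CPM in R1 and 40.6, 40.1 and 43.4 CPM in R2 libraries. It was lower in every resistant library, by 1.24-fold in R2 (log2 fold change -0.31, SE 0.06, adjusted p = 0.000323) and by 1.16-fold in R1 (-0.22, SE 0.06, adjusted p = 0.00826). The R1 call of PPARG did not hold with DESeq2 (adjusted p = 0.0166), nor without parental replicate 1 (0.0181) or 3 (0.0694), R1 replicate 2 (0.0227) or 3 (0.0406), or R2 replicate 1 (0.0116) or 2 (0.0122). In edgeR it was also lost without the count filter (0.0172), with DESeq2 size factors (0.0109) and with only the 6 libraries compared (0.0168). Against a minimum log2 fold change of 0.5 it was lost too.

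PPARA, best known for fatty acid oxidation and ketogenesis in liver, was the receptor whose level differed between the resistant lines. It measured 103, 96.1 and 95.5 CPM in parental, 83.6, 86.2 and 88.0 CPM in R1 and 106, 104 and 101 CPM in R2 libraries. R1 libraries were below all others, and R2 overlapped the parental line. The level was 1.21-fold higher in R2 than in R1 (log2 fold change 0.27, SE 0.05, adjusted p = 0.000711). Against parental cells it was lower in R1 (-0.19, SE 0.05, adjusted p = 0.00538), and the difference in R2 was 0.08 with a 95% interval from -0.03 to 0.19 (adjusted p = 0.271). The fall in R1 did not pass with trends of GC content and transcript length removed (-0.08, adjusted p = 0.129), nor without parental replicate 1 (0.0474) or without R1 replicate 1 (0.0224), 2 (0.0101) or 3 (0.0123).

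The balance among the 3 PPARs moved toward PPARD. On CPM per kilobase of exon, PPARD made up 42.9%, 48.4% and 43.9% of the summed PPAR level in parental libraries, 57.5%, 61.3% and 58.7% in R1 and 54.1%, 56.0% and 57.4% in R2. With canonical transcript length the shares of PPARD were 21.5% to 25.5% in parental and 32.5% to 36.7% in resistant libraries. The shares did not overlap with either length. PPARG held 55.5% to 59.9% of the parental sum with the canonical length and 18.6% to 21.6% with all exons, so which PPAR leads in level depended on the length used.

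Of 29 listed PPAR targets, 22 were tested. In R1 3 were called higher and 7 lower, where 14% and 13.4% of all genes tested were. In R2 2 were called higher and 7 lower, where 12.3% and 11.6% of all genes were. The median log2 fold change was -0.07 in R1 and -0.01 in R2. Among those lower in both lines were genes of fatty acid handling with low levels. FABP1, the fatty acid binding protein of liver and gut, fell 4.17-fold in R1 and 4.45-fold in R2 from 4.13 ± 0.833 CPM (SD, n = 3; adjusted p = 9.22e-08 and 5.1e-08). FABP2, the intestinal fatty acid binding protein, had 6, 7 and 9 counts in parental libraries and 0 in all 6 resistant ones. Its parental mean was 7.14-fold above a floor of 3 counts over R1 and 7.15-fold above that over R2. At higher levels, ACSL5, which activates fatty acids in gut, fell from 34.7 ± 2.18 to 15.1 ± 1.22 and 15.4 ± 0.290 CPM (SD, n = 3; adjusted p = 4.02e-12 and 6.12e-12). CPT1A, the entry step of mitochondrial fatty acid oxidation, fell by 0.31 and 0.21 on the log2 scale (adjusted p = 7.8e-07 and 0.000167). ACADVL, a later step for very long chains, was higher in R2 (0.39, adjusted p = 8.17e-08) and in R1 (0.18, adjusted p = 0.0024), where the call was lost without parental replicate 1 (0.0322) or R1 replicate 3 (0.0247), with total counts as scaling (0.0132) and after correcting for GC content and gene length (0.0229). PDK4, an inhibitor of pyruvate oxidation, was higher in R2, at 3.29 ± 0.281 CPM against 1.28 ± 0.276 in parental cells (SD, n = 3; adjusted p = 2.41e-05). ANGPTL4 had 0 counts in all parental libraries, 3, 9 and 1 in R1 and 3, 2 and 6 in R2. Its mean was 4.49-fold above a floor of 3 counts over the parental line in R1 (adjusted p = 0.00752). In R2 it was 3.84-fold above that floor and was not called (0.014). These folds leave out the counting error of the resistant lines. CD36 had 1 count in all, and FABP4 and ADIPOQ had 0.

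**Figure D3:**
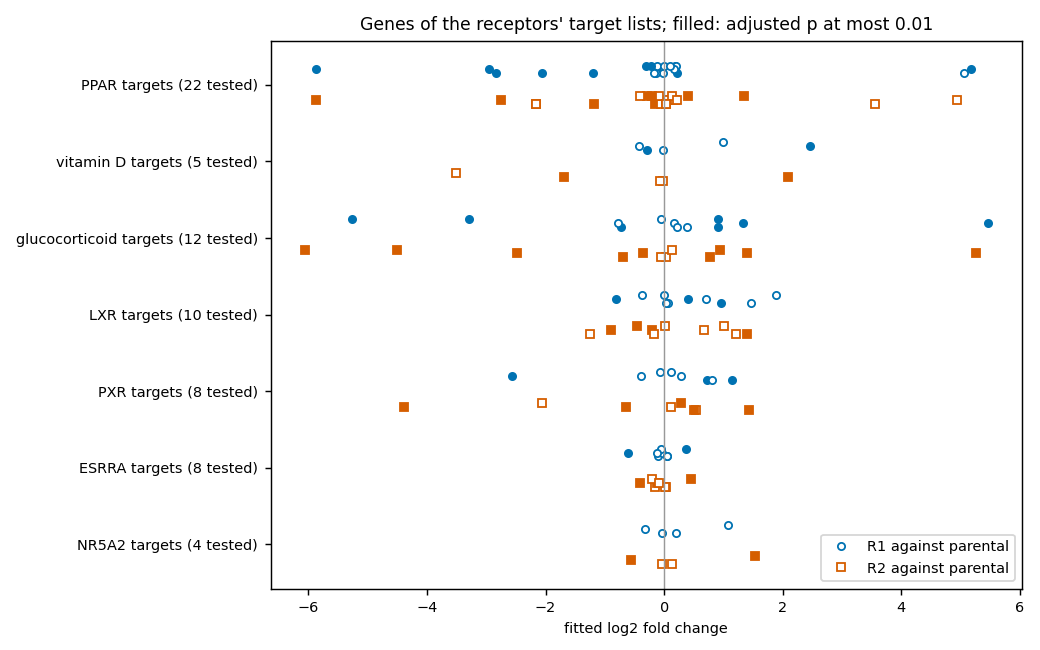
Fitted log2 fold change (x axis) of every tested gene in 7 lists of receptor target genes (y axis), circles for R1 and squares for R2 against parental cells, filled where the adjusted p was at most 0.01. Each list holds genes on both sides of 0. Points beyond 3 on either side are genes with few counts, whose fitted values depend on the prior count.

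The members with the largest falls were NR5A2 and NR1I2. Their promoter windows are shown with that of PPARD, the member that rose, to let the 3 sequences be read side by side. They were taken from RefSeq windows (GRCh38.p14) of the 250 bases before a transcription start, cut where a GENCODE exon begins, and read 5′ to 3′ on the plus strand. Capitals mark matches, on either strand, to the core element of many nuclear receptors, AGGTCA, to the element of AP-1 factors, TGANTCA, to the box bound by Sp factors, GGGCGG, or to the TATA box, TATAAA. These matches did not overlap.
NR5A2, chr1:200027460-200027613: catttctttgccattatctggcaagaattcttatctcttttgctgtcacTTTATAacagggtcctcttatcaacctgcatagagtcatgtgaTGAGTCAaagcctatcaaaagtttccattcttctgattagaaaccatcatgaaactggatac
NR1I2, chr3:119782460-119782709: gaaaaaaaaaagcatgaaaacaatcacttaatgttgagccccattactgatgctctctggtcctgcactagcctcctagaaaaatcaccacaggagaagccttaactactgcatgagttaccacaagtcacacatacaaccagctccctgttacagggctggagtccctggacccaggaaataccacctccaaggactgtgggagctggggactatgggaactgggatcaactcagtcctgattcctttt
PPARD, chr6:35342308-35342557: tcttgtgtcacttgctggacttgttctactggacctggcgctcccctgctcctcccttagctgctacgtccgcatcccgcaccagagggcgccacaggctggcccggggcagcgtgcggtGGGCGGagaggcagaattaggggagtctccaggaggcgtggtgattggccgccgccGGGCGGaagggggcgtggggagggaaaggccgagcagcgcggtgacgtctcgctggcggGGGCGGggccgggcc
The NR5A2 stretch of 154 bases holds 1 match to TATAAA and 1 to TGANTCA, motifs present in 10.7% and 6.57% of all 35116 windows of 250 bases. The part of its window that was cut and is not printed holds 1 match to AGGTCA. The NR1I2 stretch holds 0 matches. The PPARD stretch holds 3 matches to GGGCGG, found in 42.6% of all windows. GC content over the whole window was 36% for NR5A2, 47.6% for NR1I2 and 70.8% for PPARD, with a median of 58% over all windows. Of 27 windows of 9 receptors, 5 held AGGTCA, against 12.1% of all windows. The windows of a gene are not independent. In PPARG, overlapping windows of neighbouring starts held the same match. NR5A2 has another RefSeq start whose window held 0 matches, and the other NR1I2 window lies within annotated exons. VDR was without an entry.

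NR5A2, at chr1:200027614-200177420, had 118, 89 and 146 counts in the parental libraries, 25, 26 and 33 in R1 and 28, 15 and 14 in R2, or 6.96, 6.43 and 7.67 CPM, 1.53, 1.63 and 2.06 CPM, and 1.67, 0.929 and 0.914 CPM. Every resistant library held less than a parental one. The fall was 4.03-fold in R1 (log2 fold change -2.01, SE 0.20, adjusted p = 3.28e-09) and 5.95-fold in R2 (-2.57, SE 0.21, adjusted p = 1.08e-10). The lines overlapped, with an R2 to R1 difference of -0.56 (95% interval -1.11 to -0.01, adjusted p = 0.191).

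Of 9 listed NR5A2 targets 4 were tested. By edgeR and by DESeq2 0 were called in R1, where 3 had an unadjusted p under 0.05 in edgeR, and 2 were called in R2, with medians of 0.08 and 0.05. The genes called in R2 were NR0B2 and CEL, which moved in opposite directions. Of all genes tested, edgeR called 27.3% in R1 and 23.8% in R2 in either direction. NR0B2, an orphan receptor without a DNA-binding domain that represses NR5A2, had 13, 3 and 8 counts in parental libraries, 19, 12 and 18 in R1 and 26, 22 and 20 in R2. It was higher in R2 (log2 fold change 1.54, SE 0.37, adjusted p = 0.00161), a call lost without parental replicate 3 (0.0114) or R2 replicate 1 (0.0107), and its adjusted p in R1 was 0.032. CEL, a bile salt-dependent lipase, was lower in R2 (-0.55, SE 0.13, adjusted p = 0.00143), a call lost without R2 replicate 2 (0.0174). CCNE1, which drives entry into S phase, was at 44.3 ± 1.67 CPM in parental, 43.2 ± 1.19 in R1 and 43.2 ± 1.78 in R2 libraries (SD, n = 3). The bile acid enzyme gene CYP7A1 had 1 count and CYP8B1 had 0 over the 9 libraries.

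NR1I2, at chr3:119780484-119818487, senses foreign compounds and bile acids and induces drug-metabolizing enzymes. It was close to the limit of detection, with 17, 12 and 22 counts in parental libraries, 5, 2 and 2 in R1 and 0, 1 and 0 in R2. No resistant library reached a parental one. Summed over a line, the scaled count was 5.48 times lower in R1 (95% counting interval 2.67 to 12.7, adjusted p = 0.000519) and 49.4 times lower in R2 (8.48 to 1989, adjusted p = 3.85e-06). The ratio of R1 to R2 was 9.01 (1.25 to 394.9, adjusted p = 0.088). NR1I2 was not tested when 10 counts were required in every library, and with shrunken fold changes from DESeq2 it was no longer a DEG (-0.91 in R1 and -1.20 in R2).

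Of 13 listed targets of NR1I2, 8 were tested, with median log2 fold changes of 0.20 in both lines. In R1 2 were called higher and 1 lower, beside 14% and 13.4% of all genes. In R2 3 were called higher and 2 lower, beside 12.3% and 11.6% of all genes. CYP3A4, its best-known target, had 3 counts over the 9 libraries. SULT2A1, which sulfates steroids and bile acids, had 40, 35 and 63 counts in parental libraries, 15, 2 and 5 in R1 and 1, 2 and 3 in R2, a fall of 5.95-fold (adjusted p = 3.25e-06) and 20.9-fold (adjusted p = 3.08e-08). R1 replicate 1 held most of the R1 counts. CYP3A5, a related oxidase, rose in R2 to 4.18 ± 0.433 CPM from 1.53 ± 0.197 (SD, n = 3; adjusted p = 1.47e-05), and in R1 was at 2.71 ± 0.894 CPM (adjusted p = 0.0104). ABCB1, the multidrug efflux pump, rose in R1 to 5.84 ± 1.20 CPM from 2.64 ± 0.266 (SD, n = 3; adjusted p = 2.24e-05), and in R2 was at 3.85 ± 0.793 CPM (adjusted p = 0.0424). ALAS1, the first enzyme of haem synthesis, rose in both lines by 0.71 and 0.51 on the log2 scale (adjusted p = 1.65e-10 and 1.04e-07). ABCC2, a bile canalicular exporter, was lower in R2 (-0.64, adjusted p = 0.000444), while ABCC3, which exports at the opposite membrane, was higher there (0.28, adjusted p = 7.26e-05).

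NR1H3, the oxysterol-sensing liver X receptor at chr11:47248300-47269033, was 15.7, 19.4 and 15.8 CPM in parental libraries, 13.5, 14.1 and 13.0 CPM in R1 and 11.9, 12.9 and 16.5 CPM in R2. R1 libraries lay below the parental ones, and R2 replicate 3 overlapped them. The log2 fold change was -0.32 in R1 (95% interval -0.55 to -0.08, adjusted p = 0.0288) and -0.30 in R2 (-0.53 to -0.07, adjusted p = 0.0443), neither past the threshold. Both passed when trends of GC content and length were removed (adjusted p = 0.000466 and 0.0089), and R2 passed without R2 replicate 3 (-0.44, adjusted p = 0.00437). NR1H2, the ubiquitous liver X receptor, was at 23.6, 28.5 and 27.9 CPM on average in the 3 lines (adjusted p = 0.0188 in R1 and 0.0395 in R2). Of 15 listed targets 10 were tested. In R1 2 were called higher and 1 lower, and in R2 1 higher and 3 lower, with medians of 0.24 and -0.08. The shares over all genes were 14% higher and 13.4% lower in R1, and 12.3% and 11.6% in R2. The cholesterol exporter gene ABCA1, a hallmark target, had 9 counts in all, and ABCG5 and ABCG8 had 0. LPCAT3, which puts polyunsaturated chains into phospholipids, fell in both lines by 0.81 and 0.90 (adjusted p = 3.14e-11 and 3.85e-12). SCD, the fatty acid desaturase, rose in R1 by 0.41 (adjusted p = 6.43e-08) and in R2 fell by 0.20 (adjusted p = 0.00147, or 0.0104 without parental replicate 3), and its R2 to R1 difference was -0.61 (adjusted p = 3.59e-10).

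ESRRA, at chr11:64305497-64316743, was the receptor with the smallest difference from parental cells in each resistant line among the 9 tested. It measured 89.4, 103 and 89.9 CPM in parental, 98.2, 109 and 101 CPM in R1 and 95.2, 95.1 and 104 CPM in R2 libraries, and the 3 lines overlapped. The log2 fold change was 0.13 in R1 (95% interval 0.01 to 0.26, adjusted p = 0.0959) and 0.07 in R2 (-0.06 to 0.19, adjusted p = 0.471). The R1 difference passed without parental replicate 2 (0.20, adjusted p = 0.00929) and was -0.005 with trends of GC content and length removed. Of 10 listed targets, which serve mitochondrial respiration, 8 were tested, with medians of -0.05 in R1 and -0.11 in R2. In R1 1 was called higher and 1 lower, beside 14% and 13.4% of all genes. In R2 1 was called higher and 2 lower, beside 12.3% and 11.6% of all genes. IDH3A, a citric acid cycle enzyme, rose in both lines by 0.37 and 0.45 (adjusted p = 6.09e-07 and 1.92e-08), and GABPA, a regulator of respiratory chain genes, fell by 0.61 and 0.41 (adjusted p = 3.27e-06 and 0.000509). CYCS, cytochrome c, was at 571 ± 15.0, 589 ± 12.7 and 585 ± 4.83 CPM (SD, n = 3). The coactivator PPARGC1A averaged 0.330, 0.125 and 0.125 CPM, and PPARGC1B fell in R1 from 39.3 ± 1.98 to 29.6 ± 2.93 CPM (SD, n = 3; adjusted p = 0.000199).

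NR3C1 was at or under the limit of detection. It had 2, 0 and 0 counts in parental libraries, 0, 1 and 0 in R1 and 0, 1 and 0 in R2, too few to test or to give a fold. NR3C2, the mineralocorticoid receptor, which also binds cortisol, averaged 4.81 ± 0.624 CPM in parental, 2.93 ± 0.441 in R1 and 3.82 ± 0.400 in R2 libraries (SD, n = 3; adjusted p = 0.00173 and 0.135). The R1 call of NR3C2 was lost without parental replicate 1 (0.0173) or R1 replicate 1 (0.0134). HSD11B2, which inactivates cortisol in colon and kidney, was at 15.5 ± 1.93, 17.0 ± 1.26 and 16.9 ± 2.51 CPM (SD, n = 3), and HSD11B1, which reactivates it, had 1 count in all. Of 15 genes listed as glucocorticoid targets, 12 were tested, with medians of 0.19 in R1 and -0.008 in R2. In R1 4 were called higher and 3 lower, beside 14% and 13.4% of all genes. In R2 4 were called higher and 5 lower, beside 12.3% and 11.6% of all genes. FKBP5, a chaperone that dampens the receptor, had 32, 16 and 48 counts in parental libraries, 1, 1 and 0 in R1 and 1, 0 and 0 in R2, ratios of 46.5 (95% counting interval 12.5 to 389) and 93.0 (16.3 to 3711). PCK1, the gluconeogenic enzyme, fell from 2.52 ± 0.0937 to 0.249 ± 0.126 and 0.102 ± 0.0941 CPM (SD, n = 3; adjusted p = 8.69e-08 and 6.5e-09). GLUL, glutamine synthetase, fell by 0.72 and 0.69 on the log2 scale (adjusted p = 2.47e-08 and 5.35e-08). ERRFI1, an inhibitor of the epidermal growth factor receptor, rose from 40.7 ± 1.31 to 102 ± 2.67 and 108 ± 1.66 CPM (SD, n = 3; adjusted p = 7.94e-17 and 2.22e-17). The metallothionein MT2A rose by 0.91 and 0.77 (adjusted p = 7.68e-08 and 1.41e-06). Of 12 genes for the chaperones of the glucocorticoid receptor and for its ligand, 10 were tested, with medians of 0.15 and 0.21. In R1 5 were called higher and 1 lower, and in R2 6 higher and 1 lower, beside the same shares of all genes. HSPA8 rose by 0.38 and 0.33 (adjusted p = 4.56e-11 and 1.1e-09), HSP90AB1 by 0.24 in both lines (adjusted p = 6.28e-07 and 4.17e-07), and H6PD, which supplies the cofactor of cortisol reactivation, fell by 0.49 and 0.34 (adjusted p = 1.38e-07 and 3.47e-05).

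Levels of different receptors were compared per kilobase of exon in the GENCODE annotation. In parental cells the order was VDR at 67.5 ± 4.89 CPM per kb (SD, n = 3), ESRRA at 30.3 ± 2.41, PPARD at 9.62 ± 0.919, RXRA at 7.74 ± 0.538, PPARA at 7.42 ± 0.303, PPARG at 4.28 ± 0.212, NR1H3 at 3.74 ± 0.472, NR5A2 at 0.931 ± 0.0824, NR1I2 at 0.187 ± 0.0268 and NR3C1 at 0.00429 ± 0.00744. Neighbours in this order did not overlap, except RXRA with PPARA and PPARG with NR1H3. In R1 VDR fell to 34.6 ± 1.23 CPM per kb (SD, n = 3) and overlapped ESRRA at 33.1 ± 1.71. In R2 VDR, at 35.2 ± 0.327, remained above ESRRA, at 31.6 ± 1.67. PPARD rose to 14.8 ± 1.21 and 14.3 ± 0.819 CPM per kb and on this scale kept the place after ESRRA. The order depended on the length used. The exons of PPARG span 11981 bases in all but 1774 in the canonical transcript, and with the latter it reached 28.9 CPM per kb in parental cells, between ESRRA at 41.3 and RXRA at 16.9, while PPARD, at 11.5, came after RXRA.

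The wider family gives a frame for these changes. Of 38 other nuclear receptor genes, 26 were tested and 10 had 0 counts. In R1 6 were called higher and 10 lower, in R2 7 higher and 8 lower, with medians of -0.02 and -0.09. Over all genes 14% were called higher and 13.4% lower in R1, and 12.3% and 11.6% in R2. RORA, an orphan receptor for sterols that acts in circadian and immune genes, had 0 counts in all parental libraries. It averaged 19.1 ± 0.972 CPM in R1 and 21.9 ± 0.826 in R2 (SD, n = 3). These means were 317-fold and 364-fold above a floor of 3 counts over the parental line. NR1D1, a circadian repressor at the same DNA elements, rose from 8.07 ± 1.45 to 17.4 ± 1.20 and 19.5 ± 0.140 CPM (SD, n = 3; adjusted p = 5.43e-09 and 3.09e-10). HNF4A, the master regulator of gut and liver epithelium, fell from 240 ± 10.6 to 164 ± 8.68 and 155 ± 3.00 CPM (SD, n = 3; adjusted p = 6.19e-10 and 3.72e-11), and its paralogue HNF4G fell by 1.17 and 1.06 on the log2 scale (adjusted p = 4.95e-12 and 2.68e-11). Both thyroid hormone receptors fell, THRA by 0.72 and 0.75 (adjusted p = 3.76e-10 and 1.87e-10) and THRB by 1.52 and 1.83 (adjusted p = 2.9e-06 and 2.84e-07). NR2F1 rose by 0.78 and 1.04 (adjusted p = 0.00017 and 2.29e-06) while its paralogue NR2F2 fell by 0.76 and 1.09 (adjusted p = 0.000156 and 1.88e-06). NR4A1, an immediate early gene, rose in R1 by 0.44 (adjusted p = 3.31e-05) and was lower in R2 than in R1 (log2 fold change -0.58, adjusted p = 3.3e-06). Its paralogue NR4A3, with 20 counts in the parental line, rose by 2.64 and 1.46 (adjusted p = 2.06e-07 and 0.00296). The R2 call of NR4A3 was lost without parental replicate 3 (0.0231) or R2 replicate 3 (0.0163). NR4A2 fell by 0.40 in R1 (adjusted p = 0.00678) and was not called in R2 (0.0269). The oestrogen and progesterone receptor genes ESR1 and PGR and the bile acid receptor NR1H4 had 0 counts. ESR2, the other oestrogen receptor gene, had 43 counts over the 9 libraries and was not called in R1 or R2 (adjusted p = 0.156 and 0.721).

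**Figure D4:**
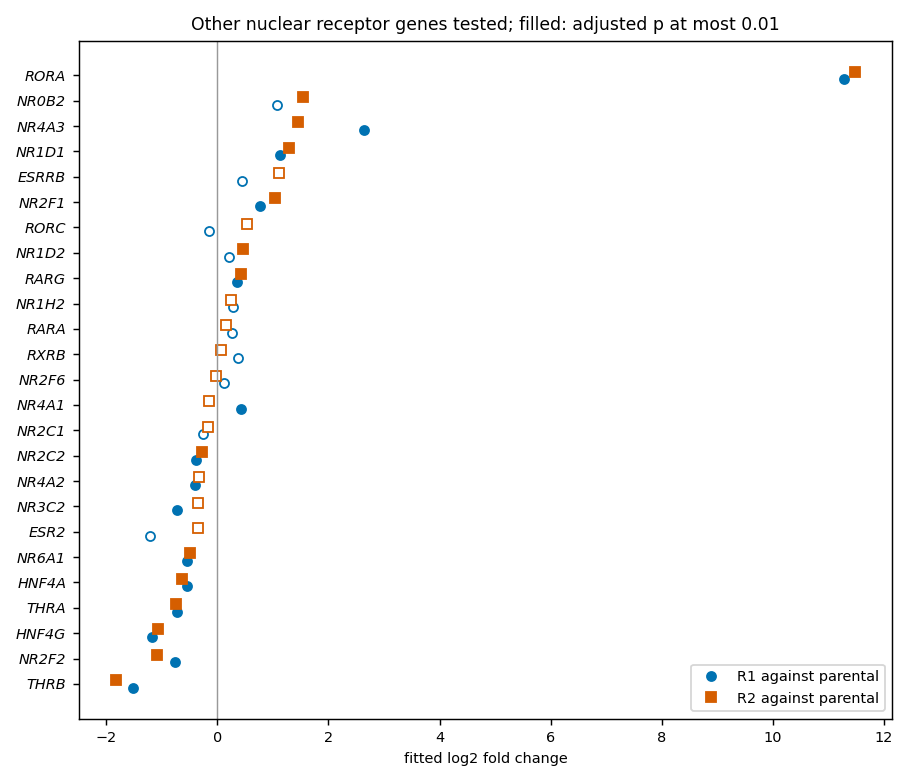
Fitted log2 fold change against parental cells (x axis) of tested nuclear receptor genes outside the 10 (y axis; 1 of the 26 is not shown), circles for R1 and squares for R2, filled where the adjusted p was at most 0.01. RORA, at 0 counts in the parental libraries, lies far to the right, and its fitted value is not a bound. HNF4A, HNF4G, THRA and THRB lie to the left in both lines.

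Of 20 coactivators and corepressors, all of which were tested, 7 were called lower and 0 higher in R1, where 13.4% of all genes were called lower, and 3 lower and 0 higher in R2, a share near the 11.6% of all genes, with medians of -0.10 and -0.09 and the same counts in DESeq2. At an unadjusted p under 0.05 in edgeR, 0 were higher in R1 and 2 (NCOA1 and PPRC1) in R2. NRIP1, a ligand-dependent corepressor, fell from 50.8 ± 4.77 to 29.2 ± 1.77 and 32.4 ± 0.387 CPM (SD, n = 3; adjusted p = 1.23e-09 and 4.25e-08). NCOR1, the corepressor of receptors without ligand, fell by 0.48 and 0.25 (adjusted p = 8.57e-10 and 5.17e-05) and was higher in R2 than in R1 by 0.24 (adjusted p = 0.000471). NCOA2 fell by 0.42 in R1 (adjusted p = 3.28e-06) and EP300 by 0.34 (adjusted p = 3.9e-06), while MED1, the subunit of Mediator that contacts receptors, was at 152 ± 4.18, 145 ± 3.12 and 162 ± 3.04 CPM (SD, n = 3).

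Genes that handle retinoids or carry fatty acids also differed. Of 12 in this list 8 were tested, with medians of 0.21 in R1 and -0.62 in R2. In R1 3 were called higher and 3 lower, beside 14% and 13.4% of all genes. In R2 2 were called higher and 3 lower, beside 12.3% and 11.6% of all genes. ALDH1A3, which makes retinoic acid, rose from 10.2 ± 0.872 to 60.1 ± 4.30 and 49.5 ± 2.32 CPM (SD, n = 3; adjusted p = 3.25e-19 and 4.87e-18), whereas ALDH1A1 had 29, 20 and 29 counts in parental libraries, 0, 0 and 2 in R1 and 0 in all R2 libraries. RDH10, the step before, rose by 0.62 in both lines (adjusted p = 2.24e-08 and 2.32e-08), and DHRS3, which reverses that step, fell by 0.71 and 1.18 (adjusted p = 0.000105 and 1.16e-07). FABP5, which delivers ligands to PPARD, fell by 0.40 and 0.87 (adjusted p = 7.09e-05 and 2.9e-10), opposite in direction to PPARD.

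Across the 9 libraries, genes with levels among the most like those of NR5A2, of 12562 compared, were SLC11A2 and PANK1, with Pearson correlations of log2 CPM of 0.987 and 0.986. For NR1I2 the closest were TMEM144 (0.988), SOAT1 (0.986) and COX5A (0.986) among 12563. These values are descriptions over 3 lines with 3 libraries each, and 251 and 199 genes had a correlation above 0.95. SOAT1, which esterifies cholesterol, fell from 6.53 CPM in parental cells to 0.828 and 0.205 CPM, while COX5A, a respiratory chain subunit, moved from 170 to 149.9 and 142 CPM.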

How the data were processed

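RNA of 9 LIM1215 libraries, 3 per line, was sequenced from both ends after stranded poly(A) preparation. The authors used STAR with hg38 and counted on the reverse strand with HTSeq 0.9.1, and the deposited values are raw, whole counts of each gene, 1 file for each library. The annotation used for counting is not given in the sources used here. Positions and lengths came from GENCODE v44 and promoter windows from RefSeq.

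The quasi-likelihood test of edgeR 4.0.16 (glmQLFit, glmQLFTest; R 4.3.3) was run with TMM factors and the 3 lines as groups on the 19102 genes holding 10 counts or more in all, with Benjamini-Hochberg adjustment over all of them. A call required an adjusted p no higher than 0.01, and a DEG also a log2 fold change of 1.5 in either direction. CPM used the TMM factors. DESeq2 1.42.0, shrunken fold changes, other filters and scalings, GC and length trends (known for 86.3% of tested genes), a replicate block and leaving out each library were alternatives. The code was tested on simulated data. Named genes were the 10 receptors, members of the 12 lists and, for members whose log2 fold change reached 1 in size, the 3 most correlated genes of 1 CPM or more; a few of these genes are left out of the text. Members, lists and tests were chosen with earlier results of these data known, so list counts are descriptions. Folds against a line with 0 counts were computed against 3 counts over that line, without the counting error of the other line. List medians were the same with such genes at this fold. For NR1I2 and FKBP5, with few counts left in the resistant lines, the scaled count ratio carries an exact 95% interval.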

Additional observations from a re-analysis of the deposited data

Results flagged for a closer look

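PPARA was flagged because its difference from parental cells was not the same in both resistant lines. The test of that difference, R2 against R1, put R2 higher by 0.27 on the log2 scale (95% interval 0.16 to 0.38, edgeR adjusted p = 0.000711), with all 3 R2 libraries (101 to 106 CPM) above all 3 R1 libraries (83.6 to 88.0 CPM). The summed level of 8 epithelial markers also differed between R1 (15200 to 15470 CPM) and R2 (13780 to 14180 CPM), and its part in the difference of PPARA was not tested.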

How the results depend on the processing

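Leaving out 1 library at a time gave 5 to 8 receptors called in R1, 6 to 7 in R2 and 1 between the resistant lines, and DEG counts of 2, 2 and 0. Against a minimum log2 fold change of 0.5 (glmTreat), 3, 3 and 0 receptors were called. The DEG count was 1 in each resistant line with at least 10 counts in every library, where NR1I2 was not tested, and 1 in each with DESeq2 lfcShrink, where its fold change was shrunken. VDR and NR5A2 kept their calls against parental cells in all 20 alternatives, and PPARD, RXRA and, in R2, PPARG in all but glmTreat. Differences near 0 turned direction. With GC and length trends removed ESRRA went to -0.0050 (R1) and 0.029 (R2 against R1). Between R2 and R1, leaving out 1 library gave -0.0028 (without R1 replicate 1) to 0.048 for VDR, -0.103 to 0.014 (without R1 replicate 2) for PPARD, and -0.127 (without R2 replicate 3) to 0.113 for NR1H3, which was -0.0085 without R1 replicate 3. Deviations of same-numbered libraries correlated at -0.17 to 0.49, over 0.1 in 4 of 9 pairs. Libraries with different numbers were not compared in this way, so these values cannot show whether the numbers pair samples. With a replicate block the receptors called remained 7, 6 and 1 and the DEGs 2, 2 and 0, while the coregulators called in R2 went from 3, all lower, to 8, of which 1 was higher and 7 lower. Depth limits NR1I2 and NR3C1, where 3 counts over a line correspond to about 0.06 CPM.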
